A study of Mus musculus with 24 samples.

Results

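The samples were embryoid bodies made from mouse embryonic stem cells (ESCs) that lack a working Eed gene, and the question was how their RNA levels changed between day 3 and day 7 of differentiation. The 8 arrays labelled Eed KO on day 3 or day 7 were taken from the 24 arrays of the series: 2 arrays on each day of the line E14 and 2 on each day of the line J1. Each line carries an Eed knockout (KO), and each stands for 1 clone in these data. The labels do not say which part of Eed was deleted. The 4 KO arrays of day 0 hold undifferentiated ESCs and served to find genes that turned back after day 3. The 12 wild-type (WT) arrays, of the lines J1 and V6.5 on the same days, served for comparison, so that J1 alone was measured in both genotypes. Per the labels' protocols, all ESCs were grown with LIF, a cytokine that holds them undifferentiated, on mitomycin-treated embryonic fibroblasts (MEFs). Differentiation began in hanging drops without LIF, from ESCs depleted of MEFs, and the aggregates were moved to suspension culture after day 2. The KO change was computed within each line and then averaged over E14 and J1.

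Polycomb repressive complex 2 (PRC2) needs EED to place methyl groups on a lysine of histone H3, a mark that helps to keep developmental genes silent. In embryoid bodies, normal ESCs leave the naive state, pass through an epiblast-like state marked by genes such as Fgf5, and then form cells of the germ layers and extraembryonic endoderm. Mesenchymal cells, which secrete matrix and express platelet-derived growth factor receptors, and blood and heart cells arise from mesoderm during that course.

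Values are log2 levels per gene, so a difference of 1 is a 2-fold change. A gene was called, and is said to have risen or fallen, at a Benjamini-Hochberg adjusted p under 0.05 (limma, over 19938 genes) with a change of at least 1. SE is the standard error of the model. The repeat arrays of each KO pair had a Pearson r across genes of at least 0.990. Between 22 and 163 genes lay at least 2-fold apart in the 6 KO pairs, most in E14 on day 7. In WT the J1 pair of day 7 stood apart, with r = 0.962 and 1256 such genes. Whether repeat arrays were made from separate cultures is not in the labels, and the p-values therefore measure a spread between arrays that may be technical. Eed itself read 5.76 to 7.48 on the 12 KO arrays and 9.37 to 11.02 on the 12 WT arrays. ESC markers averaged 11.14 to 11.54 over 8 genes on the day 3 KO arrays and 11.04 to 11.59 on those of day 7, against 7.58 to 8.33 in WT on day 7, so the day 7 KO embryoid bodies, which the labels call ESCs, had levels of these markers close to day 3.

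Between day 3 and day 7, 404 genes changed in Eed KO cells, 332 higher and 72 lower, or 2.03% of the genes tested (1.67% higher, 0.361% lower). The largest rises and falls were named only among called genes whose arrays of day 7 were separate from those of day 3. Predicted genes and olfactory or vomeronasal receptor genes were passed over. Within this set the largest rises included genes known from mesenchyme, such as Capn6, Prrx1 and Cdh11. The largest falls included Fgf5 and Dnmt3b, which mark the epiblast-like state. In 359 of the 404 genes, all 4 arrays of day 7 lay on the same side of all 4 arrays of day 3. Over all genes, with or without a call, 6.88% were separated upward and 6.93% downward in that way. The median over all genes was −0.06.

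Capn6, a calpain-like protein of embryonic muscle and mesenchyme, had day 3 levels of 6.39 and 7.22 (E14) and 6.30 and 5.98 (J1). Its day 7 levels were 9.29 and 10.51 (E14) and 10.44 and 9.87 (J1), a rise of 3.55 (SE 0.232, adjusted p = 2.4e-08). Every day 7 array was above every day 3 array, and day 0 levels (6.16 to 6.67) lay close to those of day 3. Dlk1, an imprinted growth regulator, read 8.74, 8.37, 8.69 and 8.90 on day 3 and 11.75, 12.42, 11.67 and 12.19 on day 7, in the order E14, E14, J1, J1 that is kept below. Its rise was 3.33 (SE 0.264, adjusted p = 3.5e-07), without overlap. Dkk1, a secreted Wnt antagonist, went from 7.30, 7.37, 7.45 and 7.33 to 9.82, 10.72, 11.11 and 10.77 (3.24, SE 0.295), also without overlap. The homeobox gene Prrx1, which marks limb and head mesenchyme, went from 6.68, 7.74, 6.98 and 7.19 to 9.41, 10.95, 10.70 and 10.45 (3.23, SE 0.281).

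Other large rises in both lines were Cdh11, a mesenchymal cadherin (3.04), Hapln1, which links hyaluronan to proteoglycans (3.00), Frzb, a secreted Wnt antagonist (3.00), and Igfbp5, which binds insulin-like growth factors (2.92). The imprinted noncoding RNA Airn rose by 2.86, Pmp22, a membrane protein of myelin, by 2.78, and Robo2, a receptor for the guidance cue Slit, by 2.64. In each of these 7 genes all day 7 arrays lay above all day 3 arrays, as the rule for naming them required. The levels of Emcn, an endothelial sialomucin, spread more. It read 4.96, 4.61, 5.00 and 4.87 on day 3 and 5.29, 7.71, 10.37 and 9.09 on day 7 (3.26, SE 0.623, adjusted p = 0.0016). Its E14 arrays of day 7 were far below those of J1, and without J1 the call was lost (adjusted p = 0.38). Serpinb9e, a serine protease inhibitor, rose most in the mean among the genes named by rule (3.82, SE 0.434), from 4.40, 4.82, 4.78 and 4.57 to 9.37, 11.61, 7.76 and 5.12. Its J1 arrays of day 7 differed widely, the lower lying close to day 3, and without E14 the call was lost (adjusted p = 0.11).

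**Figure D1:**
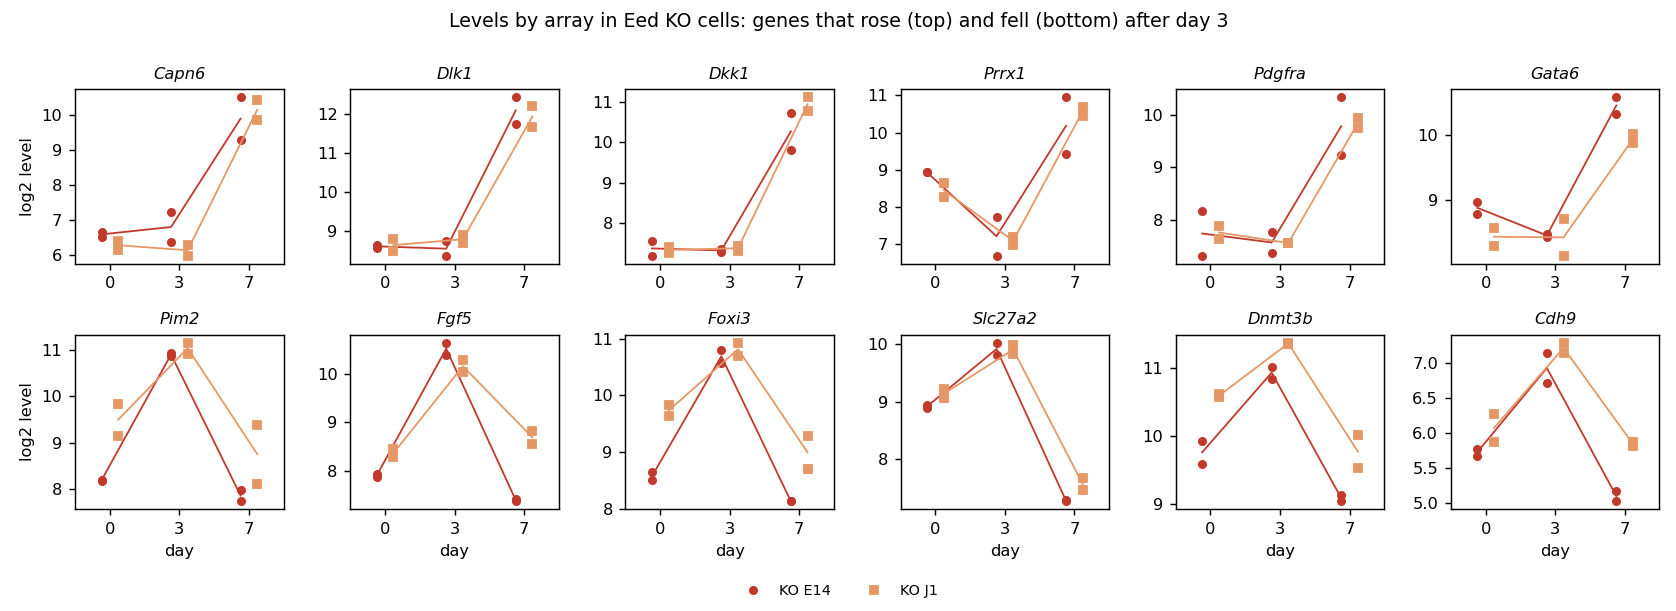
Levels in Eed KO cells on days 0, 3 and 7 (horizontal axis, days drawn at equal steps) on the log2 scale (vertical axis, 1 panel a gene). Each point is 1 array, circles E14 and squares J1, and lines join the means of each line. The 6 genes of the top row have all 4 arrays of day 7 above all 4 of day 3. In the bottom row all 4 lie below, and Pim2, Fgf5, Foxi3 and Cdh9 return to about their day 0 level.

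Among the genes named by rule, the largest fall was in Pim2, a survival kinase. It read 10.93, 10.88, 10.92 and 11.16 on day 3 and 7.98, 7.73, 8.11 and 9.39 on day 7 (−2.67, SE 0.241, adjusted p = 1.0e-06). Slc27a2, a fatty acid transporter and acyl-CoA synthetase, went from 9.81, 10.03, 9.99 and 9.83 to 7.29, 7.27, 7.47 and 7.67 (−2.49, SE 0.122). Fgf5, a growth factor of the epiblast, went from 10.41, 10.66, 10.29 and 10.05 to 7.36, 7.41, 8.56 and 8.82 (−2.31, SE 0.239). None of these genes had overlapping arrays, as the rule required, and in Fgf5 the J1 arrays of day 7 stayed above those of E14. The forkhead gene Foxi3 fell by 2.19 and the matrix metalloproteinase gene Mmp25 by 2.07. Kcnj3, a potassium channel, fell by 1.84, Calcr, the calcitonin receptor, by 1.79, and Dnmt3b, a DNA methyltransferase of the epiblast, by 1.72. The ephrin receptor Epha1 fell by 1.71, the lipid-binding gene Clvs2 by 1.66, the cadherin Cdh9 by 1.60, and the neurofilament-like gene Ina by 1.52. By the same rule, all 4 arrays of day 7 lay below all 4 of day 3 in each of them. Ina changed by −0.49 in J1, and its call was lost without E14 (adjusted p = 0.50) and when arrays were averaged first (0.081).

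The counts of the gene lists that follow are read against the 1.67% of all genes that rose and the 0.361% that fell. Of 19 measured regulators of the epithelial to mesenchymal transition (EMT) and cadherins, 7 rose and 0 fell, with a median of 0.16 against −0.06 over all genes. In 8 of the 19 all arrays of day 7 lay above all of day 3, and in 5 below, against 6.88% and 6.93% of all genes. Snai2, a repressor of epithelial genes, went from 7.02, 6.95, 6.42 and 6.80 to 8.73, 9.52, 9.44 and 9.11 (2.40, SE 0.225, adjusted p = 1.4e-06). Zeb1, another such repressor, rose by 2.08, and Twist2 and Twist1, which act in mesenchyme, by 1.91 and 1.03. Cdh11 and the epithelial keratins Krt8 (1.27) and Krt18 (1.34), which stand in the same list, were the other members that rose. Krt8 was among the genes with a called higher change in E14 than in J1. In the streak and early mesoderm list 2 of 23 members rose and 0 fell (median −0.19). These were Pdgfra, a growth factor receptor of mesenchymal precursors, and Foxc2, a forkhead factor of somite and vessel mesoderm. Pdgfra read 7.37, 7.78, 7.57 and 7.56 on day 3 and 9.23, 10.33, 9.93 and 9.75 on day 7 (2.24, SE 0.214). Foxc2 went from 6.27, 6.41, 6.76 and 6.79 to 7.19, 8.74, 9.01 and 8.76 (1.87, SE 0.284). Neither had overlapping arrays. Brachyury, the T gene, was not among the genes tested.

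In the list of fibroblast and matrix genes, which also holds markers of the feeder cells, 3 of 28 members rose and 0 fell (median 0.34). Postn, a matrix protein, went from 5.38, 6.37, 5.94 and 5.55 to 7.43, 8.84, 9.71 and 8.25 (2.75, SE 0.630, adjusted p = 0.0067). Tgfbi, a matrix protein induced by TGF-beta, rose by 2.28, and Pdgfrb, a receptor of mural cells and fibroblasts, by 1.78. Arrays of day 7 and day 3 were separate in all 3 genes. Postn lost its call with either line alone (adjusted p = 0.062 without E14 and 0.21 without J1). In these bulk samples, more cells of a type and more RNA per cell cannot be told apart.

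Of the signalling lists, BMP signalling had 5 of 23 members higher and 0 lower (median 0.53). Bmp5, a ligand, went from 6.22, 6.18, 6.19 and 5.78 to 7.54, 8.73, 8.65 and 7.79 (2.09, SE 0.238), without overlap. The targets Id1 (1.24), Id2 (1.20) and Id3 (1.04), which are inhibitors of basic helix-loop-helix factors, and Bambi (1.14), a decoy receptor, rose as well. In the Wnt list 2 of 28 rose and 0 fell (median 0.05), the antagonist Dkk1 and the ligand Wnt5a (1.15). An alternative fit averaged the repeat arrays first and replaced the 12 means by a fixed block for clone, which left 4 residual degrees of freedom. This averaged fixed-block fit ended the calls of Id1 (adjusted p = 0.12), Id2 (0.074) and Wnt5a (0.069). The FGF list had 0 of 22 higher and 1 lower, Fgf5. In Nodal and Activin signalling 0 of 18 rose and 2 fell (median −0.09). Foxh1, the DNA-binding partner of Nodal's SMAD proteins, went from 9.20, 9.22, 9.63 and 9.80 to 7.65, 7.31, 8.50 and 8.96 (−1.36, SE 0.198). It lost its call without E14 (adjusted p = 0.11). The Nodal antagonist Lefty1 fell on average (−1.01, SE 0.227), but its J1 arrays read 10.15 and 10.77 on day 3 and 10.42 and 10.74 on day 7.

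Hox genes pattern the body axis and limbs and are known PRC2 targets. Of 37 measured Hox genes 7 rose and 0 fell (median 0.41), where 1.67% of all genes rose. All arrays of day 7 lay above all of day 3 in 17 of the 37, against 6.88% of all genes. Hoxd10 went from 7.40, 7.25, 7.61 and 7.92 to 9.12, 9.07, 9.38 and 9.11 (1.62, SE 0.148, adjusted p = 1.1e-06). Hoxa11 went from 6.27, 6.53, 6.70 and 6.78 to 7.66, 8.31, 8.12 and 8.25 (1.52, SE 0.136). Hoxa10 (1.41), Hoxd11 (1.16), Hoxa9 (1.14), Hoxa13 (1.05) and Hoxc10 (1.03) were the other called members. Hoxa10, Hoxa11 and Hoxa13 are neighbours among the genes tested, as are Hoxd10 and Hoxd11, in the gene order of RefSeq. Other neighbours that rose together were Zim1 and Peg3, Serpinb9d and Serpinb9e, Krt8 and Krt18, Dkk1 and Prkg1, and Cdh11 and Cdh5, while Cdh9 and Cdh10, and Car2 and Car3, fell together.

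Among imprinted genes, which are expressed from 1 parental copy and include many fetal growth genes, 6 of 26 rose and 0 fell (median 0.47). Besides Dlk1 these were Zim1 (2.61), Igf2, a fetal growth factor (2.06), Peg3 (1.46), Sgce (1.11) and Mest (1.05). Igf2 read 9.68, 10.36, 10.86 and 10.61 on day 3 and 12.44, 12.44, 12.47 and 12.38 on day 7, so that the day 7 arrays lay within 0.10 of each other. Of the CDK inhibitors, cell cycle brakes, 0 of 6 were called (median 0.41). Cdkn1c, itself imprinted, came closest (0.92, adjusted p = 5.7e-04), with 1.54 in E14 and 0.31 in J1. Cdkn2a differed by 0.33 (adjusted p = 0.29).

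Genes of extraembryonic tissues had larger changes in E14 than in J1 by their medians. In the visceral endoderm and liver list 7 of 30 members rose and 0 fell, with a median of 1.20 in E14 and 0.06 in J1. Gata6, a regulator of primitive endoderm, read 8.43, 8.48, 8.14 and 8.71 on day 3 and 10.58, 10.33, 10.01 and 9.87 on day 7 (1.76, SE 0.257, adjusted p = 1.4e-04). It was the 1 called gene of 14 endoderm transcription factors. Cubn, an uptake receptor of visceral endoderm, went from 6.91, 7.19, 7.45 and 8.86 to 9.96, 10.58, 9.11 and 9.71 (2.24, SE 0.389). Both had separate arrays, and both lost their calls without E14 (adjusted p = 0.060 for Gata6 and 0.30 for Cubn). The plasma protein genes Ttr (1.85) and Afp (1.47) and the keratin Krt19 (1.45) were higher in the mean. In E14 Ttr changed by 3.87, Afp by 2.66 and Krt19 by 2.71, and in J1 by −0.17, 0.28 and 0.18. The averaged fixed-block fit ended the calls of all 3 (adjusted p = 0.16, 0.13 and 0.13), as did leaving out E14 (0.95, 0.83 and 0.87). The difference between the lines did not pass the test in these 3 genes (adjusted p = 0.30, 0.38 and 0.060). Ttr also lost its call without any 1 of 6 arrays, with adjusted p from 0.076 to 0.18.

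Of 20 trophoblast genes 6 rose and 0 fell, with medians of 0.66 in E14 and 0.34 in J1. Plac1, a placental growth gene, went from 6.12, 6.23, 6.67 and 6.77 to 9.39, 10.18, 8.57 and 7.70 (2.51, SE 0.269). Krt7, a trophoblast keratin (1.82), Syna, which fuses trophoblast cells (1.76), and the homeobox genes Rhox9 (1.43) and Rhox6 (1.18) also rose, beside Krt8. The changes of Syna and Krt8 were called higher in E14 than in J1. Plac1, Krt7, Rhox9 and Syna lost their calls without E14 (adjusted p = 0.077, 0.074, 0.29 and 0.36). In the Serpinb9 and Pramel list 3 of 10 rose and 0 fell: Serpinb9e, Serpinb9d (2.60) and Serpinb9b (1.60). These are related genes of 1 cluster, and whether a probe set of one also reads another was not tested. All 3 lost their calls without E14 (adjusted p = 0.11, 0.22 and 0.10).

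The lists for blood, vessel, heart and nerve are read against the 1.67% of all genes that rose and the 0.361% that fell. Of 20 primitive blood genes 0 rose and 0 fell (median −0.08). Runx1, which is needed for blood formation, came closest to a call with 0.95 (adjusted p = 0.020), and Tal1, a master regulator of blood, differed by −0.34 (adjusted p = 0.12). In endothelium 3 of 18 rose and 0 fell (median 0.44): Emcn, the vascular cadherin Cdh5 (1.75) and the transcription factor Fli1 (1.47). Cdh5 read 6.23, 6.05, 7.67 and 7.22 on day 3 and 6.83, 7.78, 10.23 and 9.32 on day 7, so the lines were apart on both days. It lost its call in the averaged fixed-block fit (adjusted p = 0.12), and without E14 day 7 replicate 2 (0.056) or J1 day 7 replicate 1 (0.051). Fli1 lost its call without E14 day 7 replicate 2 (0.075). Without E14 and without J1, Cdh5 lost its call (adjusted p = 0.067 and 0.35), as did Fli1 (0.20 and 0.10). Kdr, a receptor of blood and vessel precursors, differed by 0.78 (adjusted p = 0.013), under the fold minimum.

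Of 17 cardiac and lateral mesoderm factors 3 rose and 0 fell (median 0.50). Isl1, a factor of heart and limb progenitors, went from 7.01, 7.12, 7.22 and 7.21 to 8.16, 8.62, 8.13 and 8.41 (1.19, SE 0.144). Tbx2 (1.05) and Foxf2 (1.04) passed the fold minimum narrowly and fell short of it when arrays were rescaled. Of 23 sarcomere and muscle genes 0 rose and 1 fell, Cnn1, a smooth muscle calponin (−1.49). In neuroectoderm and neurons 0 of 29 rose and 2 fell (median −0.28), the neurofilament gene Nefm (−1.23) and the neurogenic factor Neurod1 (−1.17). Neurod1 lost its call in the averaged fixed-block fit (adjusted p = 0.17).

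The plot of list medians sets these groups side by side. In the lists for PRC2 (11 genes), PRC1 (17), proliferation (26), p53 targets (16), cholesterol synthesis (20), germline and meiosis (27), 2-cell-like genes (7) and proteasome subunits (32, a control), 0 genes were called in either direction. Over all genes the share called was 2.03%, and each of these lists is too short to tell 0 calls from that share. Their medians lay between −0.12 and 0.18, and the proteasome list had −0.05. In the interferon list 2 of 19 rose, Usp18 (2.29) and Rsad2 (1.39), and 1 fell, Irf1 (−1.17). All 3 lost their calls without E14 (adjusted p = 0.23, 0.13 and 0.16), and Irf1 fell short of the fold minimum with the mean of its probe sets (−0.69). In the hypoxia list P4ha1, a collagen hydroxylase, rose (1.10) and the other 28 genes were not called. Of 12 DNA methylation genes Dnmt3b fell, while Tet2 (1.11) and Tet3 (1.04), which oxidise methylcytosine, rose. Tet2 fell short of the fold minimum without E14 day 3 replicate 1 (0.87), J1 day 3 replicate 1 (0.97) or J1 (0.93). Tet3 did so with the mean of its probe sets (0.82), and without E14 day 7 replicate 2 (0.88) or E14 (0.91).

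**Figure D2:**
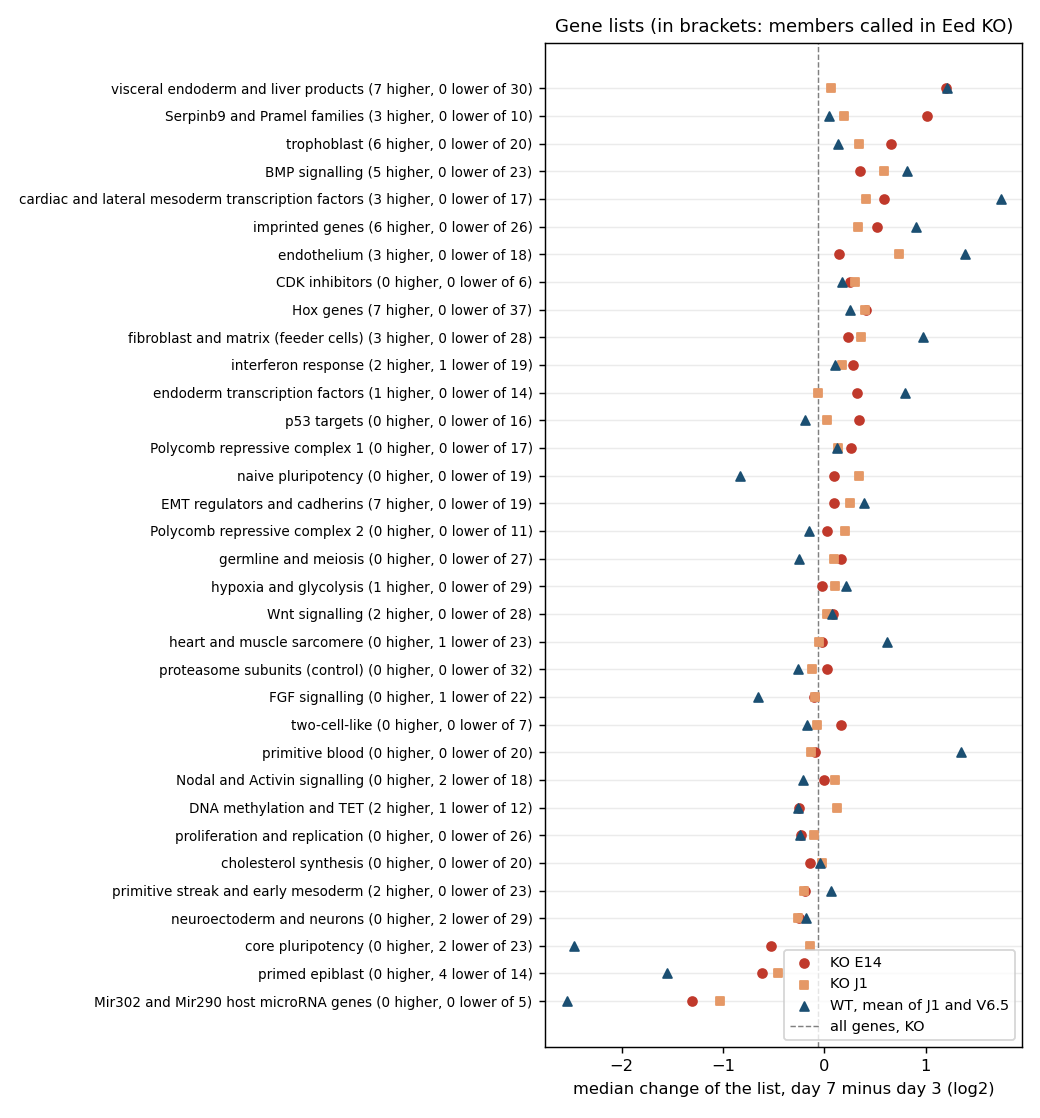
Median change from day 3 to day 7 (horizontal axis, log2) of each gene list (vertical axis) in Eed KO E14 (circles), Eed KO J1 (squares) and WT as the mean of both lines (triangles). Brackets give how many measured members were called in Eed KO, and the dashed line is the median of all genes (−0.06). Visceral endoderm genes lie at 1.20 in E14 and 0.06 in J1, and core pluripotency genes at −2.47 in WT.

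Of 23 core pluripotency genes 0 rose and 2 fell, with a median of −0.35, where 0.361% of all genes fell. In 7 of the 23 all arrays of day 7 lay below all of day 3, and in 0 they lay above, against 6.93% and 6.88% of all genes. Pou5f1, which encodes OCT4, read 12.40, 12.37, 12.27 and 12.40 on day 3 and 11.97, 11.49, 11.80 and 11.96 on day 7 (−0.56, SE 0.157, adjusted p = 0.025). The day 7 arrays lay below the day 3 arrays, but the change was under the fold minimum. Nanog read 12.35, 12.42, 11.61 and 11.75 on day 3 and 12.82, 12.53, 11.83 and 12.13 on day 7 (0.30, adjusted p = 0.50). Sox2 differed by −0.21 (adjusted p = 0.75). The 2 members that fell were Lin28a, an RNA-binding protein that blocks let-7 (−1.18), and Lefty1. Lin28a lost its call without E14 (adjusted p = 0.20). Lefty1 lost its call with clone as a random block (adjusted p = 0.086) and in the averaged fixed-block fit (0.21), and fell short of the fold minimum without any 1 of 4 arrays.

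Naive pluripotency genes are those of undifferentiated ESCs, and primed genes those of the epiblast. Of 19 naive pluripotency genes 8 had fallen by day 3, where 0.627% of all genes fell. From day 3 to day 7, 0 of the 19 rose and 0 fell (median 0.16). The changes after day 3 of those 8 ran from 0.12 in Socs3, a feedback inhibitor of LIF signalling, to 0.71 in the T-box gene Tbx3. Tbx3 read 10.59, 10.73, 9.60 and 9.58 on day 0, 9.29, 9.57, 8.52 and 8.87 on day 3, and 10.38, 10.04, 9.34 and 9.36 on day 7. Within each line its arrays of day 7 were above those of day 3, with an adjusted p of 0.0010, but the change was under 1. Klf4, a LIF-responsive factor, differed by 0.63 (adjusted p = 0.093), the adhesion molecule Jam2 by 0.65 (0.13), Fbxo15 by 0.49 (0.21), Stat3 by 0.31 (0.28), Esrrb by 0.22 (0.62) and Zfp42 by 0.15 (0.80). Of 14 primed epiblast genes 2 had risen by day 3, where 0.607% of all genes rose. After it 0 rose and 4 fell (median −0.45): Fgf5, Dnmt3b, the POU factor Pou3f1 (−1.12) and Sall2 (−1.06). Sall2 lost its call without E14 (adjusted p = 0.25), without J1 (0.18) and without E14 day 3 replicate 1 (a change of −0.98).

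From day 0 to day 3, 246 genes had changed in KO, 121 higher and 125 lower (1.23% of the genes tested; 0.607% and 0.627%). By the rule for a rebound, 25 genes fell by day 3 and rose by day 7 (0.125% of the genes tested), and 31 rose by day 3 and fell by day 7 (0.155%). Both changes use the same day 3 arrays, so these counts are a description and have no test of their own. In all 56 genes the changes had opposite signs in E14 and in J1 separately, which the rule favours, since it requires opposite mean changes. Without E14, 8 genes rebounded upward (7 of the 25 among them) and 15 downward (13 of the 31). Without J1, 17 did so upward (10 of the 25) and 42 downward (23 of the 31). On day 7, 22 of the 25 genes and 31 of the 31 were not called against day 0, where 2.5% of all genes were called (2.07% higher, 0.426% lower). Opposite changes bring day 7 nearer to day 0 by construction, so this is not a test of a return. Without E14 day 3 replicate 1, 15 genes rebounded upward, and without J1 day 3 replicate 1, 16 did.

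The genes that rose again included Igfbp7, Pcolce and Emp1, whose levels in both lines were lower on day 3 than on days 0 and 7. Igfbp7, a secreted protein of vessels and stroma, read 10.38, 11.17, 10.32 and 9.23 on day 0, 7.54, 8.28, 7.87 and 7.77 on day 3, and 9.62, 8.92, 10.84 and 9.80 on day 7. Pcolce, which enhances procollagen processing, read 10.46, 10.72, 10.36 and 10.60 on day 0, 8.82, 9.17, 8.50 and 8.88 on day 3, and 10.09, 10.69, 10.31 and 10.26 on day 7. Emp1, a membrane protein of epithelia, read 11.72, 11.54, 11.37 and 11.49, then 9.29, 9.82, 8.77 and 9.25, then 10.96, 10.80, 10.66 and 10.39. The rise of Emp1 lost its call with either line alone (adjusted p = 0.056 without E14 and 0.066 without J1). In each of the 3 genes the day 3 arrays lay below the arrays of both other days. Vcam1, an adhesion molecule, fell by 1.39 and rose by 1.49, and Anxa1, a phospholipid-binding protein, fell by 2.06 and rose by 1.38. The rise of Anxa1 lost its call without E14 (adjusted p = 0.18). Prrx1 and Cdh11 ended above their day 0 level, by 1.69 and 1.81, and Bgn, a matrix proteoglycan, stayed 1.84 below it. Tnc, a matrix glycoprotein, rose by 1.45 in the mean but by 0.38 in E14 and 2.51 in J1. It lost its call without J1 (adjusted p = 0.77) and in the averaged fixed-block fit (0.19). The call was also lost without E14 day 3 replicate 1 (a change of 1.24) or J1 day 7 replicate 1 (1.18). Also in this group were Tet2, the small heat shock protein Cryab (1.63) and Sting1, an adaptor of innate immunity (1.13).

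The mean level of fibroblast markers was also lowest on day 3, though most members that had fallen by then were not called afterwards. Of 28 genes of the fibroblast and matrix list, 0 rose and 8 fell from day 0 to day 3 (median −0.51), against 0.607% and 0.627% of all genes. Postn was the 1 member among the 25 genes that rose again. The mean level of the list was 8.43 to 9.19 on the day 0 KO arrays, 7.93 to 8.07 on day 3 and 8.37 to 8.74 on day 7. Over the 8 fibroblast feeder markers it was 7.75 to 8.83, then 7.03 to 7.25, then 7.82 to 8.55. Of the 7 other list members that had fallen by day 3, all stayed uncalled after it, among them Thy1 (−0.14), a fibroblast surface protein, Lox (0.09), which crosslinks collagen, and S100a4 (−0.12). Day 0 ESCs were grown on feeders and the aggregates were not, and the part of feeder RNA in the fall by day 3 was not tested.

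**Figure D3:**
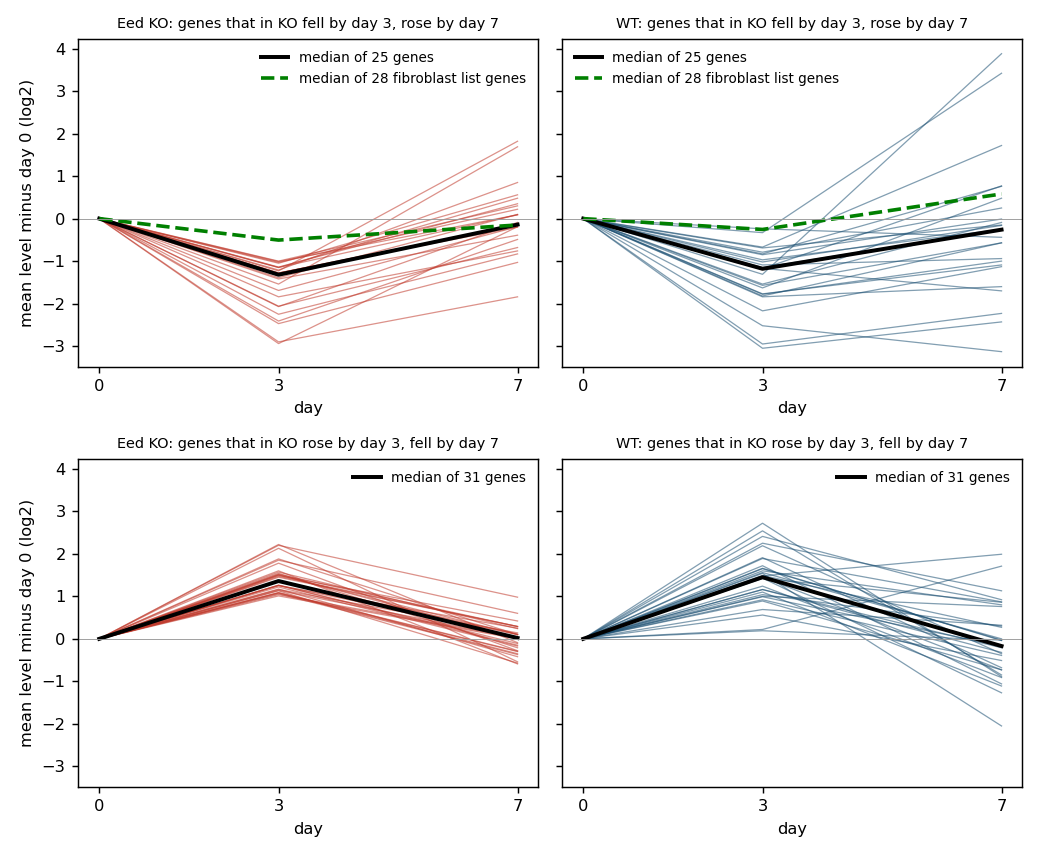
Mean level on days 0, 3 and 7 (horizontal axis) relative to day 0 (vertical axis, log2) of the 25 genes that in Eed KO fell and then rose (top) and the 31 that rose and then fell (bottom), in Eed KO (left) and WT (right). Thin lines are genes, thick black lines their median, and the green dashed line the median of the 28 fibroblast list genes. In WT the medians are −1.18 and 1.45 on day 3.

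The genes that rose by day 3 and fell after it included Fgf5, Pim2 and Calcr. Fgf5 read 7.92, 7.87, 8.44 and 8.28 on day 0 and so was 0.09 lower on day 7 than on day 0, after a peak 2.23 above it. Pim2 read 8.20, 8.17, 9.15 and 9.84 on day 0, and Calcr 7.18, 7.31, 7.25 and 7.16. Calcr then read 8.79, 9.09, 9.40 and 9.14 on day 3 and 7.25, 7.05, 7.56 and 7.41 on day 7, a fall of 1.79 in each line after a rise of 1.69 in E14 and 2.07 in J1. Mmp25 rose by 1.78 and fell by 2.07, and Foxi3 rose by 1.60 and fell by 2.19. After day 3, Vrtn, a regulator of vertebral number, fell by 1.49, and Spon1, a matrix protein of the floor plate, by 1.40. Vrtn lost this call without E14 (adjusted p = 0.18). In 31 of the 31 genes, which were chosen for a called fall, all day 7 arrays lay below all day 3 arrays. Others were the cadherins Cdh9 and Cdh10, the carbonic anhydrases Car2 and Car3, the progenitor factor Myb, the lipoxygenase Alox15 and the neuronal motor Kif1a.

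The levels on the WT arrays did not enter the KO changes that chose these genes, but the spread between WT arrays entered the standard errors. Fitted on the 12 KO arrays alone, 30 genes rebounded upward, with all 25 among them, and 35 downward, with all 31. Of the 25 genes, 15 fell and 0 rose in WT by day 3, against 1.09% and 0.958% of all genes tested (2.05% in either direction), and 10 rose and 0 fell from day 3 to day 7, against 3.79% and 2.45%. Of the 31 genes, 23 rose and 0 fell in WT by day 3, and 23 fell and 1 rose after it. The exception was Olfr893, an olfactory receptor gene (1.49 in WT and −1.16 in KO), named after its values were seen because it was the single gene of that kind. After day 3, the change was called different between KO and WT in 5 of the 25 genes and 4 of the 31, against 2.89% of all genes. Among them Prrx1 rose by 1.78 and Igfbp7 by 1.69 more in KO than in WT, and Fgf5 and Calcr fell by less in KO (differences of 1.30 and 1.60).

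A pair of microRNA genes of the Mir106a to Mir363 cluster on the X chromosome belonged to the 31. MicroRNAs repress target RNAs that match their seed, bases 2 to 8 of the mature strand. The mature strands are printed, from RefSeq (GRCm38.p6), to show which family each belongs to, with the seed in capitals. Of the cluster, miR-363-3p shares its seed with miR-367-3p of the Mir302 cluster on chromosome 3, and miR-106a-5p with miR-20b-5p. The other members shown, of the Mir302 cluster, carry AAGUGCU or, in miR-302c-3p, the same letters shifted by 1 base.
miR-363-3p: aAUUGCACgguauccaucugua
miR-367-3p: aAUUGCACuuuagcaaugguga
miR-106a-5p: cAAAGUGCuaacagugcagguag
miR-20b-5p: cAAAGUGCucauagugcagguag
miR-302b-3p: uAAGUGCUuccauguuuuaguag
miR-302d-3p: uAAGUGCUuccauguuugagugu
miR-302c-3p: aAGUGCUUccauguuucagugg

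The array reads the gene or precursor, not the mature strand, and most levels given here lie under the array medians of 6.96 to 7.14. On the minus strand of the X chromosome, the miR-363-3p sequence lies at chrX:52741697-52741718 and that of miR-106a-5p at chrX:52742541-52742563. Mir363 read 4.92, 5.00, 5.61 and 6.95 on day 0, 6.81, 7.16, 7.29 and 7.40 on day 3, and 4.88, 4.60, 5.82 and 6.33 on day 7 (−1.76 after day 3, SE 0.433, adjusted p = 0.011). Mir106a read 4.76, 4.42, 4.84 and 5.23, then 5.89, 5.91, 5.70 and 6.30, then 4.84, 4.43, 4.92 and 5.13 (−1.12, SE 0.20). Both had day 7 arrays below all day 3 arrays. Mir363 lost its call without E14 (adjusted p = 0.42) and without J1 day 7 replicate 1 (a change of −1.63). Mir20b, between them, rose by 1.02 by day 3 and differed by −0.96 after it (adjusted p = 0.0023), just under the fold minimum.

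The Mir302 genes were lower on day 7 without passing the test. Their levels were low, with a mean over the list of 5.18 to 6.44 on the day 3 KO arrays and 4.27 to 4.73 on those of day 7. Of 5 measured, 3 had risen by day 3 (median 1.58), where 0.607% of all genes rose, and 0 rose and 0 fell after it (median −1.16). Mir302a read 4.15, 4.48, 3.93 and 4.70 on day 0, 5.71, 6.90, 6.39 and 5.58 on day 3, and 4.96, 4.96, 4.52 and 4.71 on day 7 (−1.36, SE 0.549, adjusted p = 0.12). Its arrays of days 3 and 7 did not overlap. Mir302c (−1.27, adjusted p = 0.15) and Mir302d (−1.16, 0.10) were similar. Mir302b (−0.90, adjusted p = 0.27) and Mir367 (−0.56, 0.39) changed less, and their arrays of days 3 and 7 overlapped. Fitted on the 12 KO arrays alone, Mir302a and Mir302c passed (adjusted p = 0.0018 and 0.0057), and in the averaged fixed-block fit Mir302a did (0.037). In WT 5 of the 5 fell after day 3, with a median of −2.54, where 2.45% of all genes fell.

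Promoters rich in CpG are a feature of many Polycomb targets. The dinucleotide CG was counted on 1 strand, where it reads the same on both, in the 250 bases before the start of the first listed transcript (RefSeq, GRCm38.p6). Its median count was 11.0 in 15614 of the tested genes with a listed window, 11.0 in 245 of the 332 genes that rose and 10.0 in 55 of the 72 that fell. Windows with under 5 CG made up 29.6%, 21.6% and 23.6%. In 21 of the 31 genes that fell again the median was 11.0, and in 15 of the 25 that rose again it was 7.0. The 120 bases before the start are shown, with CG in capitals, for 3 rebound genes with large changes, chosen after their values were seen: Fgf5 (chr5:98254064-98254183, plus strand) and Pim2 (chrX:7878186-7878305, plus strand), with 12 each, and Prrx1 (chr1:163313651-163313770, minus strand), with 1.
Fgf5: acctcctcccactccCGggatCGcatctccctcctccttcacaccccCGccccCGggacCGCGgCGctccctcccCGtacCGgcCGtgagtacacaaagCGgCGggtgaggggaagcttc
Pim2: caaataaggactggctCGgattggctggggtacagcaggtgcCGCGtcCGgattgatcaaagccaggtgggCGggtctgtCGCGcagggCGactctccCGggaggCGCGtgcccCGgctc
Prrx1: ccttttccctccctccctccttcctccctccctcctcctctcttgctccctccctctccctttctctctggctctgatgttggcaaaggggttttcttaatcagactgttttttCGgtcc

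The lines mostly changed in the same direction and were less alike in size. E14 alone had 548 called genes (2.75%; 435 or 2.18% higher, 113 or 0.567% lower) and J1 alone 257 (1.29%; 215 or 1.08% higher, 42 or 0.211% lower). Over all 19938 genes, 14428 changed in the same direction in both lines. Of the 404 genes called in the mean, 400 did, but a call on the mean of both lines favours a shared direction. Of these 404, 257 changed more in E14, with medians of 1.33 in E14 and 1.09 in J1. Across all genes the changes of the lines correlated at r = 0.69 (Spearman's rho = 0.58), a description across genes, which are not independent replicates. The count of E14 rests on the second array of day 7: without it 291 genes were called, and without the first 754 were. In J1, leaving out the first array of day 7 gave 148.

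**Figure D4:**
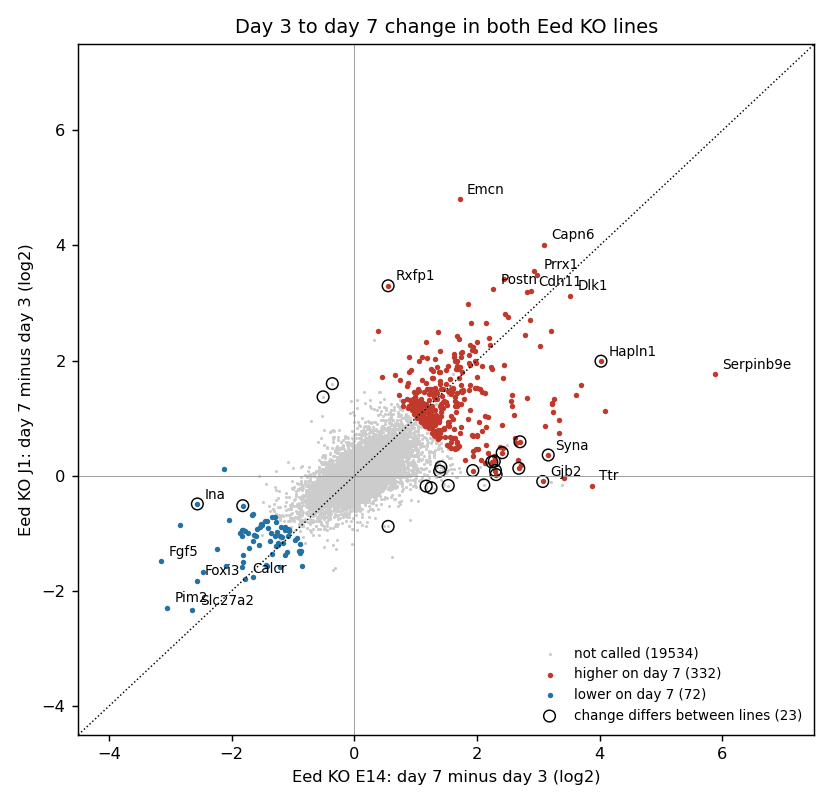
Change from day 3 to day 7 (log2) in Eed KO E14 (horizontal axis) and Eed KO J1 (vertical axis). Each point is a gene, red or blue where it was called in the mean of both lines, with the dotted line marking equal change and circles the 23 genes whose change differed between lines. Most called genes lie in the quadrants of shared direction. Gjb2 and Syna lie near the horizontal axis and are among the circled genes, and Ttr, also near it, is not.

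The test of the difference between lines called 23 genes (0.115%), 5 (0.0251%) with a higher change in J1 and 18 (0.0903%) with a higher change in E14. Rxfp1, the relaxin receptor, read 4.48, 4.41, 4.45 and 4.68 on day 3 and 5.02, 4.97, 8.04 and 7.69 on day 7, so that J1 rose by 2.75 more (SE 0.194, adjusted p = 6.1e-07). Gjb2, a gap junction protein, read 6.37, 6.12, 6.77 and 6.41 and then 9.10, 9.53, 6.69 and 6.28 (difference −3.18, SE 0.289, adjusted p = 1.9e-05). Dppa1, an ESC-associated gene, read 6.22 or more in E14 on day 7 and between 4.01 and 4.32 on the other 6 arrays of days 3 and 7 (−2.22, adjusted p = 3.7e-05). The arrays of the lines did not overlap on day 7 in these 3 genes, which were chosen for large differences. How many of all genes were separated in that way was not computed. Others higher in E14 were Syna (−2.80), the water channel Aqp8 (−2.55), the alcohol dehydrogenase Adh1 (−2.29), Nostrin, which traps nitric oxide synthase (−2.27), Hapln1 (−2.03) and Krt8 (−2.03). Others higher in J1 were Ina (2.07), the neural factor Olig3 (1.96), the mechanosensitive channel Piezo2 (1.87) and the interferon regulator Irf1 (1.31). Ina read 10.52 and 10.69, then 10.02 and 10.22 in J1, and fell in E14 from 10.67 and 10.70 to 8.02 and 8.23. The count moved from 7 to 86 on leaving out single arrays (7 without J1 day 3 replicate 1 or E14 day 3 replicate 2, and 86 without E14 day 7 replicate 1). The differences in Rxfp1, Gjb2 and Dppa1 kept their calls without any single KO array. Those in Hapln1 and Krt8 were not followed through these fits, and the differences in the other genes named here lost their calls in some. That of Ina was lost without any 1 of the 12 KO arrays (adjusted p up to 0.27), that of Aqp8 without any 1 of 9 (up to 0.22) and that of Irf1 without any 1 of 8 (up to 0.22). Adh1 lost it without any 1 of 6, Olig3 of 5, Piezo2 and Syna of 4, and Nostrin of 3.

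WT cells changed in more genes over the same days: 1244 were called, 755 higher and 489 lower (6.24%). The test of the difference between genotypes, over different lines except J1, called 576 genes (2.89%), 316 (1.58%) with a higher change in KO and 260 (1.3%) with a lower one. In the core pluripotency list 17 of 23 had a higher change in KO and 0 a lower one. Pou5f1 read 12.48, 12.39, 12.56 and 12.50 on the WT arrays of day 3 and 8.98, 7.95, 8.85 and 8.94 on those of day 7, in the order J1, J1, V6.5, V6.5 (difference 3.25, SE 0.222, adjusted p = 3.3e-08). Dppa2, an ESC chromatin factor, read 12.23, 12.11, 12.08 and 12.28 on day 3 and 12.28, 12.10, 12.43 and 12.41 on day 7 in KO, while in WT it fell by 3.44 (difference 3.57). Utf1, a chromatin factor of ESCs, differed by 3.45 in the same sense, Nr0b1, a nuclear receptor, by 3.40, and Slc7a3, an amino acid transporter, by 3.26. The KO and WT arrays of day 7 did not overlap in these 5 genes, which their choice by large differences favours. The share of all genes separated in that way was not computed.

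Genes of blood and heart differed in the other direction. The embryonic globin Hbb-bh1 read 5.38, 4.70, 6.03 and 5.87 on day 7 in KO, 0.14 above day 3 in the mean (adjusted p = 0.74). In WT it read 5.37, 6.30, 5.22 and 4.85 on day 3 and 12.37, 13.29, 13.07 and 12.85 on day 7 (difference −7.32, SE 0.325, adjusted p = 2.2e-10). The globins Hbb-y (−6.68) and Hba-x (−5.55) behaved alike. Of 20 primitive blood genes 13 had a lower change in KO, against 1.3% of all genes. Tbx20, a heart factor, differed by −4.88, the smooth muscle actin Acta2 by −4.02, and the tryptophan-degrading enzyme Tdo2 by −3.86. Of the cardiac and lateral mesoderm factors 10 of 17 had a lower change in KO, against the same 1.3%. Of 37 Hox genes 2 had a higher and 2 a lower one, against 1.58% and 1.3% of all genes. Hoxa11 (1.47, adjusted p = 8.4e-05) and Hoxa10 (1.32, 0.0016) rose more in KO, since in WT they changed by 0.05 and 0.09. Serpinb9e also rose more in KO (3.54), but lost this call in the averaged fixed-block fit (adjusted p = 0.16). Of the genes with the largest rises in KO, Dlk1 (−0.02, adjusted p = 0.98), Emcn (0.39, 0.87) and Robo2 (0.37, 0.60) gave no difference that passed the test.

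**Figure D5:**
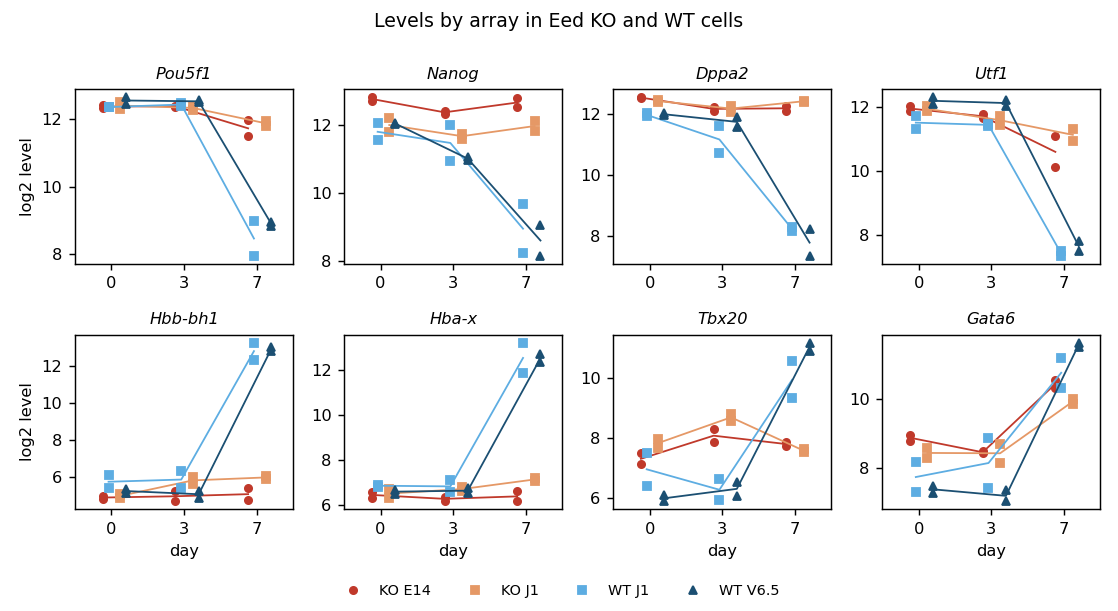
Levels on days 0, 3 and 7 (horizontal axis, days drawn at equal steps) on the log2 scale (vertical axis, 1 panel a gene) in Eed KO E14, Eed KO J1, WT J1 and WT V6.5. Each point is 1 array and lines join means. Pou5f1, Nanog, Dppa2 and Utf1 stay at 10.11 or above on every KO array of day 7, Hbb-bh1 at 6.03 or below, and Gata6 rises in all 4 clones.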

How the data were processed

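RNA was measured on Affymetrix Mouse Gene 1.0 ST arrays, from total RNA per the labels. The authors deposited log2 values per probe set, and the submitters' processing notes name RMA and Affymetrix Power Tools, without versions. The values ran from 2.08 to 14.4, with array medians of 6.96 to 7.14. Array number limits the precision. Of 35556 probe sets, 21789 carried 1 gene symbol, 1621 carried several and 12146 were not named here. Symbols were updated through RefSeq (GRCm38.p6; 21698 matched). Of 999 genes with several probe sets, the probe set with the highest mean was kept, which left 19938 genes. T was not among them.

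All 24 arrays were fitted with limma 3.58.1 (R 4.3.3, statmod 1.5.0) as 12 means of line, genotype and day, with 12 residual degrees of freedom. The KO change is the mean of the changes within E14 and J1. For a call, p-values were adjusted across the whole table (Benjamini-Hochberg, under 0.05), with a change of at least 1. The fit was tested on simulated data. Genes were named by rule: the 14 largest rises and falls with separate arrays, up to 8 rebound genes and 6 difference genes each way, and up to 4 called members a list (2 where none was called). Predicted genes, clone accessions, and olfactory and vomeronasal receptor genes were passed over. Other names were chosen after their values were seen. The comparison, the gene lists and the members were chosen with earlier results of these data known. The main fit did not pair arrays by replicate number. Deviations of same-numbered arrays correlated between 0.01 and 0.36 in the 6 pairs of KO groups of days 3 and 7. The range was −0.05 to 0.47 over the 6 KO groups and −0.4 to 0.47 over all 12 groups. Whether same-numbered arrays share an effect was not tested beyond the replicate block. Alternatives were a replicate block, clone as a random block, averaged arrays together with a fixed clone block, KO arrays alone, 1 line at a time, each KO array left out, other fold minimums, scalings, a filter on low values and another probe set rule.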

Additional observations from a re-analysis of the deposited data

Results flagged for a closer look

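By the limma test of the difference, E14 and J1 had unequal changes after day 3 in 23 genes. The largest differences, given as J1 minus E14, were Rxfp1 (2.75), Ina (2.07), Olig3 (1.96), Piezo2 (1.87) and Irf1 (1.31) with a higher change in J1. Gjb2 (−3.18), Syna (−2.80), Aqp8 (−2.55), Adh1 (−2.29), Nostrin (−2.27) and Dppa1 (−2.22) had a higher change in E14. E14 and J1 each stand for 1 clone, so line and clone cannot be told apart. Of these genes, Rxfp1, Gjb2 and Dppa1 kept their calls without any single KO array, and the other 8 lost theirs without at least 1.

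KO and WT had unequal changes over the same days in 576 genes, given as KO minus WT. Dppa2 (3.57), Serpinb9e (3.54), Utf1 (3.45), Nr0b1 (3.40), Slc7a3 (3.26) and Pou5f1 (3.25) had a higher change in KO. Hbb-bh1 (−7.32), Hbb-y (−6.68), Hba-x (−5.55), Tbx20 (−4.88), Acta2 (−4.02) and Tdo2 (−3.86) had a lower one. Only J1 was measured in both genotypes.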

How the results depend on the processing

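Choices were changed 1 at a time, except that averaging repeat arrays went with a fixed clone block in place of the 12 means. The alternatives gave these counts of called genes. For the KO change (404), E14 left out gave 256 (215 shared), J1 left out 506 (317 shared), no fold minimum 2428, a minimum of 2 on the log2 scale 48, and leaving out single arrays 324 to 478. For E14 (548), no fold minimum gave 1458, a minimum of 2 gave 87, and single arrays 291 (without E14 day 7 replicate 2) to 754. For J1 (257), these were 577, 43, and 148 (without J1 day 7 replicate 1) to 278. For the line difference (23), KO arrays alone gave 68, leaving out genes with a mean under 6 gave 12, a minimum of 2 gave 12, and single arrays 7 to 86. Leaving out both WT J1 day 7 arrays, an alternative chosen after seeing the data, gave 91. For day 0 to day 3 (246), no fold minimum gave 1668, a minimum of 2 gave 22, and single arrays 206 to 278. For the genotype difference (576), arrays averaged with a fixed clone block gave 353 and clone as a random block 511, no fold minimum 1433, a minimum of 2 gave 101, and single arrays 494 to 584. For the rebound upward (25), E14 left out gave 8, no fold minimum 221, a minimum of 2 gave 1, and single arrays 15 to 34. For the rebound downward (31), these were 15, 259, 2, and 23 to 31. The replicate block gave 406, 547, 261, 22, 245 and 579 in the same order, and rebounds of 25 and 31. Its 1 lost call was the line difference in Ina (adjusted p = 0.069, limma).

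Of 139 results on named genes, 48 lost a call under some alternative, 21 of them on leaving out 1 array and 13 with arrays averaged and a fixed clone block, and 7 gained one. Those that reversed, without E14, were Lefty1 (0.12) and Ttr (−0.17). The cause was not tested. Centring arrays moved the median of all genes from −0.06 to −0.13 and the share of higher calls from 82.2% to 75.3%, and Tbx2, Foxf2 and Tet3 then fell short of the fold minimum.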

Other observations

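Of 27 germline and meiosis genes, 5 had fallen by day 3 in KO and 0 had risen (median −0.53), where 0.627% of all genes fell and 0.607% rose, and after day 3 0 rose and 0 fell (median 0.09). Sycp3, a protein of the meiotic chromosome axis, differed by −0.96 and Ddx4, a germ cell helicase, by −0.84, both without a call. In the genotype comparison 7 of the 27 had a higher change in KO and 0 a lower one, against 1.58% and 1.3% of all genes.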
